A study of Mus musculus with 64 samples.

Results

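The genes described here are Prss50, Dpep3, Gm1564, Gm364, D6Mm5e, Tktl2, Gml, Kctd19, Ankrd36 and Elavl3, which are 10 of the 26385 genes in the RNA-Seq tables. They were selected on lower RNA-Seq reads and RPKM in the whole testis of Morc1tg/tg mice at P10.5 or P14.5, where P is the postnatal day and E the embryonic day. Those libraries therefore describe the genes but do not test them. The tests below rest on libraries of sorted germ cells, which the selection rule did not use, and on whole testis of the Dnmt3l and Miwi2 lines. Earlier results of these data were known when the members were chosen.

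The series held 47 RNA-Seq libraries, 20 of sorted germ cells and 27 of whole testis. Morc1 encodes a nuclear ATPase of male germ cells, and the Morc1tg allele is a tyrosinase transgene insertion that removed early exons, kept in FVB/N mice. Sorted cells were labelled as Morc1 het (Morc1tg/+) or Morc1 KO (Morc1tg/tg). E16.5 and E18.5 each gave 2 libraries of both, P2.5 gave 3 het and 2 KO libraries, and P10.5 gave 4 het and 3 KO libraries. Cells from E16.5 to P2.5 were sorted on the GFP of an Oct4-IRES-eGfp reporter in a mixed background, and cells at P10.5 were sorted as EPCAM high, MHC class I negative cells of low side scatter. Whole testis of the Morc1 line was taken at P10.5 from 3 Morc1tg/tg, 2 Morc1tg/+ and 1 Morc1+/+ mice and at P14.5 from 3 Morc1tg/tg and 3 Morc1tg/+ mice. Another 2 P10.5 testis libraries, 1 Morc1tg/+ and 1 Morc1+/+, are labelled preliminary, and the labels do not say whether they come from further mice. The other P10.5 testes were 3 Dnmt3l-/-, 3 Dnmt3l+/- and 3 Dnmt3l+/+, and 2 labelled Miwi2 het and 2 labelled Miwi2 KO. DNMT3L is a cofactor of de novo DNA methylation and MIWI2 (the product of Piwil4) is a piRNA-binding protein of fetal germ cells. All levels are RPKM, the reads scaled to exon length and to the mapped reads of the library.

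In the juvenile testis the spermatogonia of the initial wave enter meiosis nearly together, so the day of age sets which meiotic stages are present. Entry needs retinoic acid and STRA8, and is followed by the formation of the synaptonemal complex and by recombination. Several of the 10 genes belong to this programme. Gm1564 is now named Meioc and its product keeps germ cells in an extended meiotic prophase. D6Mm5e is now named M1ap, for meiosis 1 associated protein. KCTD19 works with ZFP541 and the histone deacetylases HDAC1 and HDAC2 in meiotic prophase. Prss50 (also Tsp50) encodes a testis relative of serine proteases, Dpep3 a membrane dipeptidase of the testis, Gml a lipid-anchored protein of the Ly6 family and Tktl2 a relative of transketolase. Elavl3 encodes HuC, an RNA-binding protein known mainly from neurons. Ankrd36 encodes a protein with ankyrin repeats, and Gm364 is a predicted protein-coding gene.

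In mm9, the build of the tables, 3 of the genes lie on chromosome 8. Kctd19 spans chr8:107906707-107937402 on the minus strand, Dpep3 chr8:108497420-108503319 on the minus strand and Tktl2, which has 1 exon, chr8:69035639-69037677 on the plus strand. Chromosome 9 holds Prss50 at chr9:110760471-110767132 (plus) and Elavl3 at chr9:21819449-21856467 (minus). Chromosome 11 holds Gm1564 at chr11:102525030-102543551 (plus) and Ankrd36 at chr11:5469687-5589340 (plus). D6Mm5e spans chr6:82896896-82980177 (plus), Gml chr15:74643884-74649245 (minus) and Gm364 chrX:54662331-54741944 (plus). All 10 are annotated as protein-coding. Kctd19 alone overlaps another gene of the tables, Plekhg4 on the opposite strand, by 56 bases, and the kit used on whole testis does not keep strand.

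The promoters of 8 of the 10 genes were in the RefSeq table (GRCm38.p6), and Gml and Kctd19 were not. The 250 bases before the start of 4 of them are shown, because these 4 hold most of the matches to motifs of factors of meiotic entry and prophase. Capitals mark the matches.
Prss50, chr9:110857714-110857963, plus strand: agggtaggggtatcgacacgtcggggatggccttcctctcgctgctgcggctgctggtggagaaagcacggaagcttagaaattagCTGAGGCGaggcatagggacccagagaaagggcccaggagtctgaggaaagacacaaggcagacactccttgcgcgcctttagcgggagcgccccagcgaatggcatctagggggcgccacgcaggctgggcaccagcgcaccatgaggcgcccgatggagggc
Gm1564, chr11:102665335-102665584, plus strand: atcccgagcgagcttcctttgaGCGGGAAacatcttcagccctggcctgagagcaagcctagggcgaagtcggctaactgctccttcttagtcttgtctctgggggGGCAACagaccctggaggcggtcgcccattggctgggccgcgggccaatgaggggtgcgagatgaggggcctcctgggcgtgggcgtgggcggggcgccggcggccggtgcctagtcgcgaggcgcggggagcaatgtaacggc
Gm364, chrX:57408899-57409148, plus strand: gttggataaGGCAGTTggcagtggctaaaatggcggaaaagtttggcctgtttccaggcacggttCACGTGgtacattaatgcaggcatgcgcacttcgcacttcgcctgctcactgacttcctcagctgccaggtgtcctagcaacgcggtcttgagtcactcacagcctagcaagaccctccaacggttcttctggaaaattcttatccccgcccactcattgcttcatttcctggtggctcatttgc
Ankrd36, chr11:5569434-5569683, plus strand: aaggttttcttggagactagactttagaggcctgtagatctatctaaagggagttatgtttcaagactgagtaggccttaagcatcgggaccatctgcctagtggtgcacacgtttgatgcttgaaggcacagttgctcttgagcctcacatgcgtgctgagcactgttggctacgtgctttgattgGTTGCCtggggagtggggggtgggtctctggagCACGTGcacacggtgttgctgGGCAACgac

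The motifs of 6 factors or families were searched on both strands. CNCCTCAG, the motif of STRA8, was found in Prss50 and D6Mm5e, and in 7.39% of all 27025 genes searched. GTTGCC, bound by RFX factors, was found in Gm1564 and on both strands in Ankrd36 (11.8% of all genes). CACGTG, the E-box, was found in Gm364 and Ankrd36 (6.86%), GGCNGTT, the motif of MYB factors, in Gm364 (11.1%), and GCGGGAA, an E2F motif, in Gm1564 (4.38%). TGACGTCA, the cyclic AMP response element, was found in 0 of the 8 and in 1.77% of all genes. No motif overlapped another, and Dpep3, Tktl2 and Elavl3 held none of the 6. These are matches of letters in a window and not binding sites.

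The targeted genes went with the labels with 1 exception. Sorted libraries held 2413679 to 14918478 reads on genes and whole testis libraries 22509570 to 42137954. Morc1 levels in Morc1tg/tg lay below the controls at every age (4.36 to 5.58 against 8.15 to 11.1 in sorted cells at P10.5). Reads remained on the gene, of which the allele removes only some exons. Dnmt3l was 0.037 to 0.0464 in Dnmt3l-/- and 0.374 to 1.02 in its controls. Piwil4 went against the label of the Miwi2 line, with 10.7 and 11.5 in the libraries labelled Miwi2-/- and 6.65 and 7.01 in Miwi2+/-, so those libraries are named by their label throughout. This RNA level alone does not decide the genotype, and transposable elements, another readout of it, were not analysed here. All 10 germ cell markers were expressed in sorted cells at P10.5 (summed 468 to 646 RPKM). The 9 Sertoli markers summed to 50.8 to 128 there and to 2009 to 4799 in P10.5 testis of the 3 lines.

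In control germ cells, the genes followed different courses from E16.5 to P10.5. The level of Dpep3 was already 46.1 and 54.5 in the 2 Morc1tg/+ libraries of E16.5. Gm364 stood at 54.1 and 72.9 in the same libraries. Gml stood at 4.97 and 5.87, Ankrd36 at 1.5 and 1.11 and Prss50 at 11 and 9.38. The means of Gm1564, D6Mm5e and Elavl3 were 7.61, 3.52 and 1.82. RNA of these genes was thus present in libraries of sorted fetal germ cells of the male, which do not enter meiosis. Tktl2 and Kctd19 were lower, at means of 0.537 and 0.376. The Sertoli markers summed to 32.5 to 44.0 in the same libraries. Some single somatic markers, such as Gata4 (mean 2.07) and Col1a1 (5.18), stood at levels like those of the lower members. Others, such as Fshr (0.14), stood lower. Carry-over of RNA from somatic cells was not tested.

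From E16.5 to E18.5 none of the 10 genes was called in edgeR (1 had an unadjusted p under 0.05, and DESeq2 called 0), while 4.25% of all genes fell and 3.49% rose. The E18.5 libraries disagreed on some genes: Prss50 was 4.25 in replicate 1 and 0.0893 (1 read) in replicate 2. The count moved when either E18.5 library was left out. The lone E18.5 library is then assumed to vary like the E16.5 pair, so the counts of those fits are not read.

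From E18.5 to P2.5, D6Mm5e rose from 6.22 and 2.61 to 19.8, 17.2 and 21.7 (log2 fold change 1.99, SE 0.38, adjusted p = 0.00401). Gm364 fell from 49.9 and 55.1 to 30.6, 41.2 and 44.2 (log2 fold change -0.65, SE 0.20, adjusted p = 0.0399). These 2 were the only members called, against 11.2% of all genes called higher and 13.4% called lower. Ankrd36 had no read in 2 of the 3 P2.5 libraries and 21 reads in the other, against 38 and 64 reads at E18.5 (adjusted p = 0.136). The count was 1 without P2.5 replicate 3, and it also moved without E18.5 replicate 2, which leaves 1 E18.5 library.

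Between P2.5 and P10.5, 8 of the 10 members were tested. Of these, 5 rose and 1 fell, with 20% of all genes called higher and 19.3% called lower. Stage cannot be told apart here from the strain background and the gate, which both changed. Prss50 rose most, from 3.83, 3.25 and 7.63 to 47.2, 31.8, 34.9 and 39.9 (log2 fold change 3.19, SE 0.23, adjusted p = 2.36e-07). Gm1564 rose from 10.3, 10.8 and 9.36 to 35.6, 25.9, 25.0 and 26.9 (1.73, SE 0.13, adjusted p = 3.11e-07). In neither gene did the stages overlap. Elavl3 rose from 0.399, 0.684 and 0.926 to 2.92, 2.46, 2.21 and 3.17 (2.20, SE 0.29, adjusted p = 3.98e-05). Gm364 (0.76, SE 0.11) and D6Mm5e (0.66, SE 0.12) rose less. Gml, in contrast, fell from 9.61, 7.86 and 11.6 to 0.507, 0.579, 0.130 and 0.0698 (-4.59, SE 0.58, adjusted p = 2.83e-05), and its last 2 values rest on 2 reads and 1 read. Gml could enter this test only through P2.5, where it is higher, so its call adds no support to the counts. Dpep3 stood at a mean RPKM of 28.5 and then 26.6, with a fitted log2 fold change of the opposite sign (0.17, SE 0.17, adjusted p = 0.45). Without P2.5 replicate 1 that value was 0.44 and passed the test (adjusted p = 0.00631). Kctd19, at means of 0.178 and 0.199, was not called either.

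**Figure D1:**
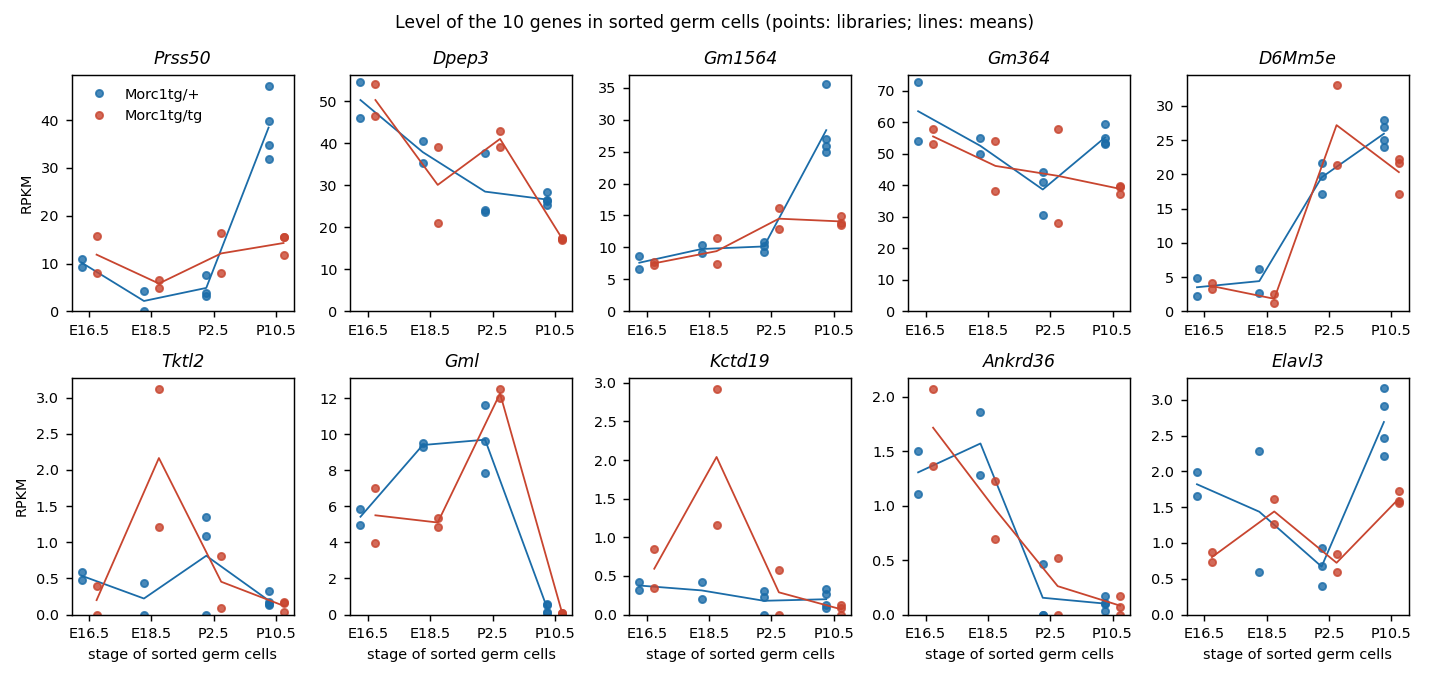
RPKM (vertical axis, from 0, with its own scale for each gene) in sorted germ cells by stage from E16.5 to P10.5 (horizontal axis), with a point for each library and lines through the means of Morc1tg/+ (blue) and Morc1tg/tg (red). At P10.5 the 4 blue points lie above the 3 red points for Prss50, Dpep3, Gm1564, Gm364, D6Mm5e and Elavl3, while no member passed the test at the earlier stages.

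In Morc1tg/tg germ cells before P10.5, no member that was tested passed the test, and Kctd19 had too few reads to be tested at P2.5. At E16.5 edgeR called 0 members (2 had an unadjusted p under 0.05, DESeq2 called 0), and 0.0361% of all genes were called lower and 0.385% higher. Elavl3 came closest there, with 1.99 and 1.65 in Morc1tg/+ and 0.735 and 0.869 in Morc1tg/tg (log2 fold change -1.28, SE 0.31, adjusted p = 0.0823). Gm364 was 54.1 and 72.9 against 58.0 and 53.0 (adjusted p = 0.458). The count moved when replicate 2 of either genotype was left out. The lone library is then assumed to vary like the other genotype, so the counts of those fits are not read.

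At E18.5 edgeR and DESeq2 called 0 members and 0 had an unadjusted p under 0.05, with 0% of all genes called lower and 0.0416% higher. Morc1 itself was not called by edgeR, at 2.38 to 7.03 in Morc1tg/tg against 22.4 to 26.1 (log2 fold change -2.32, SE 0.41, adjusted p = 0.139). The test at this stage could therefore miss a difference of that size. Kctd19 had 4 and 10 reads in Morc1tg/+ and 16 and 54 in Morc1tg/tg (adjusted p = 0.817). Tktl2 had 6 and 0 against 29 and 15 (adjusted p = 0.886). Other members had lower values in the mutants, such as Gml with 5.1 ± 0.35 against 9.39 ± 0.16 (SD, n = 2 and 2, adjusted p = 0.98). The Gml values rest on 52 reads in the mutants and 128 in the controls. Few reads also underlie the lower values of D6Mm5e and Ankrd36 and the higher values of Tktl2 and Kctd19.

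At P2.5 again 0 were called in edgeR and in DESeq2 (1 at an unadjusted p under 0.05), and 0.00694% of all genes were called lower and 0.0416% higher. Prss50 was 3.83, 3.25 and 7.63 in Morc1tg/+ and 16.3 and 7.95 in Morc1tg/tg (log2 fold change 1.30, SE 0.52, adjusted p = 0.968). Gm1564 was 10.3, 10.8 and 9.36 against 12.9 and 16.1 (0.49, SE 0.23, adjusted p = 0.968). Neither difference passed the test.

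At P10.5 in sorted germ cells, 6 of the 10 genes were lower in Morc1tg/tg and 0 were higher, while 5.79% of all genes were called lower and 6.43% higher. The other 4 (Tktl2, Gml, Kctd19 and Ankrd36) had too few reads to be tested. Prss50 fell most, from 47.2, 31.8, 34.9 and 39.9 in Morc1tg/+ to 15.6, 15.5 and 11.8 in Morc1tg/tg (log2 fold change -1.51, SE 0.12, adjusted p = 1.48e-09). Gm1564, the Meioc gene, fell from 35.6, 25.9, 25.0 and 26.9 to 14.9, 13.8 and 13.5 (-1.08, SE 0.10, adjusted p = 7.09e-09). For both, the highest mutant library lay well under the lowest control.

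Elavl3 fell from 2.92, 2.46, 2.21 and 3.17 to 1.72, 1.58 and 1.56 (-0.81, SE 0.17, adjusted p = 0.00205). Dpep3 fell from 26.4, 25.3, 26.2 and 28.5 to 17.4, 17.1 and 17.2 (-0.71, SE 0.10, adjusted p = 3.23e-05). Gm364 fell from 59.3, 55.1, 53.0 and 53.4 to 39.8, 37.2 and 39.6 (-0.58, SE 0.08, adjusted p = 1.3e-05). The groups did not overlap for these 3 genes, although the Elavl3 controls spread widely (2.69 ± 0.43, SD, n = 4). D6Mm5e, the M1ap gene, fell least, from 27.9, 26.9, 25.0 and 24.0 to 21.7, 17.1 and 22.2 (-0.43, SE 0.11, adjusted p = 0.00842), and its call was lost without Morc1tg/tg replicate 2 (adjusted p = 0.0941). Of the genes not tested, Gml had 21 reads over 4 controls and 2 reads over 3 mutants, Kctd19 39 and 10, Tktl2 27 and 12, and Ankrd36 29 and 17.

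The Morc1 effect on 3 genes differed between the P10.5 libraries and those of earlier stages. The edgeR test of this difference was added after the values had been seen. Stage cannot be told apart here from the gate and the strain background, which both changed between P2.5 and P10.5. The members were also picked for falls in Morc1tg/tg testis at P10.5 or P14.5. For Prss50 the effect at P10.5 was lower than that at E16.5 by 1.61 on the log2 scale (log2 difference -1.61, SE 0.28, adjusted p = 0.00208). It was also lower than those at E18.5 (-3.16, SE 0.72, adjusted p = 0.0301) and P2.5 (-2.72, SE 0.40, adjusted p = 0.00416). The Prss50 effect at E18.5 was itself uncertain (1.67, SE 1.27). It rests on 42 reads over the 2 Morc1tg/+ libraries, which disagreed (2.17 ± 2.94, SD). Gm1564 gave -0.99 against E16.5 (SE 0.17, adjusted p = 0.00133), -1.17 against E18.5 (SE 0.28, adjusted p = 0.034) and -1.58 against P2.5 (SE 0.20, adjusted p = 0.00107). Dpep3 gave -0.63 against E16.5 (SE 0.15, adjusted p = 0.0252) and -1.22 against P2.5 (SE 0.25, adjusted p = 0.0337), and was not called against E18.5 (adjusted p = 0.338). Of all genes, 0.822%, 1.5% and 0.178% had a lower effect at P10.5 than at E16.5, E18.5 and P2.5. The other 7 members were not called in any of the 3 tests.

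Among gene lists in the same sorted cells, 9 of 20 early meiosis genes were lower and 0 were higher. Prdm9, which sets the sites of recombination, fell from 8.7 to 10.2 in controls to 3.4 to 4.27 (log2 fold change -1.39, SE 0.13, adjusted p = 1.89e-08). Rec8, a meiotic cohesin, fell by 1.20 on the log2 scale (SE 0.19, adjusted p = 0.000144), and Mei1 by 0.92 (SE 0.14, adjusted p = 4.12e-05). Stag3, Smc1b and Syce1 were not called, with values of -0.20, -0.19 and -0.11. Of 8 genes of differentiating spermatogonia 3 fell, among them Stra8 (-1.08, SE 0.10, adjusted p = 1.4e-08), and 1, Ccnd2, rose.

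Markers of germ cells in general did not fall with the members. Of the 10, Ddx4 and Piwil2 were called higher and 0 lower, and the summed level of the 10 was 547 to 646 in Morc1tg/tg and 468 to 560 in Morc1tg/+. Of 10 genes of undifferentiated spermatogonia 7 were higher and 0 lower (summed 189 to 224 against 138 to 149), with Gfra1 at 25.3 to 28.9 against 15.5 to 19.8. Sertoli markers summed to 50.8 to 104 in mutants and 76.6 to 128 in controls, with 3 of 9 lower, and peritubular and stromal markers to 12.4 to 13.5 and 8.6 to 9.91, with 2 of 6 tested called higher. The part of these mixtures in the members' falls was not tested.

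Of 27 relatives and partners of the 10 genes in the tables, 18 were tested in these cells, 3 were lower and 0 higher, where 5.79% of all genes were called lower. Ly6k, a Ly6 family gene like Gml, was 1.36 to 3.53 in Morc1tg/tg and 7.34 to 9.55 in Morc1tg/+ (log2 fold change -1.93, SE 0.30, adjusted p = 7.1e-05). Prss41 (-1.45, adjusted p = 0.0221) and Tktl1 (-0.29, adjusted p = 0.015) were the others. Zfp541, the partner of Kctd19, was 1.87 to 2.96 and 2.18 to 2.99 (adjusted p = 0.783).

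**Figure D2:**
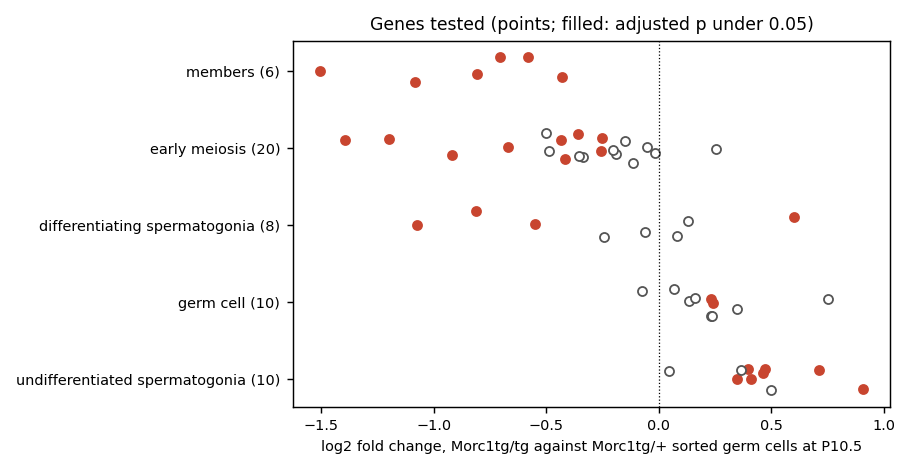
log2 fold change (horizontal axis) of Morc1tg/tg against Morc1tg/+ sorted germ cells at P10.5, with a point for each tested gene of the 10 genes described here and of 4 lists (rows), filled where the adjusted p was under 0.05. All 6 tested members are filled and lie left of 0, 9 of 20 early meiosis genes are filled and left of 0, and the 7 filled genes of undifferentiated spermatogonia lie right of 0.

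In whole testis of the Morc1 line, the values that chose the genes fell into 2 patterns. Fewer cells of a type and less RNA per cell cannot be told apart in such bulk libraries. In the early pattern a gene was expressed in control testis at P10.5 and lower in Morc1tg/tg at that day and at P14.5. Prss50 was 18.7 in Morc1+/+ and 15.7 and 17.3 in Morc1tg/+ at P10.5, and 4.33, 4.07 and 3.72 in Morc1tg/tg. At P14.5 it was 104, 98.4 and 119 in Morc1tg/+ and 33.4, 29.5 and 26.6 in Morc1tg/tg. Both genotypes gained Prss50 RNA between the days, 6.23-fold in controls and 7.38-fold in mutants, and the mutant mean stayed at 23.4% and then 27.8% of the control mean.

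Dpep3, Gm1564, Gm364, Elavl3 and D6Mm5e shared this early pattern. Dpep3 was 19.8 ± 1.12 (SD, n = 3) in P10.5 controls and 6.89, 6.61 and 6.23 in mutants, and 107, 97.8 and 125 against 29.8, 27.7 and 23.7 at P14.5. Gm1564 was 10.6, 10.8 and 9.90 against 3.48, 2.50 and 2.97, and later 38.7, 33.3 and 40.8 against 16.4, 14.0 and 13.6. Gm364 was 20.8, 21.7 and 19.8 against 8.87, 7.48 and 7.59, and later 74.2, 70.4 and 85.1 against 26.3, 23.2 and 21.8. No library of one genotype reached the range of the other. Elavl3 went from 27.7% of the control mean at P10.5 to 15.6% at P14.5. The share for D6Mm5e went the other way, from 43.7% to 74.0%, with 38.0, 37.6 and 33.0 in P14.5 controls and 30.5, 24.5 and 25.4 in mutants.

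Tktl2, Gml, Kctd19 and Ankrd36 made up the late pattern, in which the gene was near 0 in control testis at P10.5 and far higher in controls at P14.5. The name holds for testis of the Morc1 line only. Gml had a mean of 9.67 in control germ cells at P2.5, and Tktl2 a mean of 3.63 in Dnmt3l control testis at P10.5. Kctd19 was 0.203, 0.211 and 0.15 in P10.5 controls and 26.7, 17.7 and 33.3 in P14.5 controls, a 138-fold difference of the means. In Morc1tg/tg it was 0.0579, 0.0421 and 0.0304 and then 1.23, 0.995 and 0.889, so that the mutants held 4.01% of the control level at P14.5. The 23.9-fold difference between their 2 days rests on 13 reads at P10.5.

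Gml reached 36.1, 25.0 and 44.0 in P14.5 controls against 1.02, 0.702 and 1.00 in Morc1tg/tg. Tktl2 reached 12.1, 8.85 and 14.6 against 0.460, 0.293 and 0.354. Ankrd36 reached 2.75, 2.24 and 3.86 against 0.0525, 0.0786 and 0.0680. Each mutant mean was 2.25% to 3.12% of the control mean, and the P14.5 mutant libraries of Ankrd36 overlapped the P10.5 controls. At P10.5 the genotypes overlapped for Tktl2, Gml and Ankrd36, which had 3 to 22 reads in a library.

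Over all genes tested, 18.9% lay lower without overlap in Morc1tg/tg at P10.5 and 27.4% at P14.5, and 33.5% lay higher in P14.5 than in P10.5 controls. Among the members the counts were 7, 10 and 10. These libraries chose the members or, for the controls, were part of that choice, and nothing is read from the counts. The median log2 fold change of the 10 was -2.34 at P14.5, and that of all genes 0.01. For D6Mm5e, Ankrd36 and Elavl3 the P14.5 mutants overlapped the P10.5 controls, and for the other members they lay above them. The share of all genes lying above in this way was not computed, and nothing is read from this order. The preliminary P10.5 controls held 15.3 and 16.3 of Prss50, 17.5 and 17.5 of Dpep3 and 9.80 and 10.2 of Gm1564, close to the later controls.

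Cell markers moved with genotype in these testes. The 10 germ cell markers summed to 250 to 284 in Morc1tg/tg and 361 to 371 in controls at P10.5, and to 354 to 397 and 597 to 706 at P14.5. Not all fell: at P14.5, 7 lay lower without overlap and 1 lay higher. Of 10 genes of undifferentiated spermatogonia, 1 lay lower and 5 higher at P14.5 (summed 79.2 to 89.9 against 66.5 to 79.1). The 16 pachytene genes summed to 133 to 159 in mutants and 602 to 967 in controls at P14.5, and the 9 Sertoli markers to 4286 to 5254 and 3262 to 3599. All 20 early meiosis genes lay lower without overlap at both days. The late members were each at 2.25% to 4.01% of control at P14.5, with Zfp541 at 3.58 to 4.46 against 16.0 to 22.0 and Tex101, a germ cell surface protein, at 78.3 to 96.1 against 368 to 523. The part of the marker shift in these differences was not tested.

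**Figure D3:**
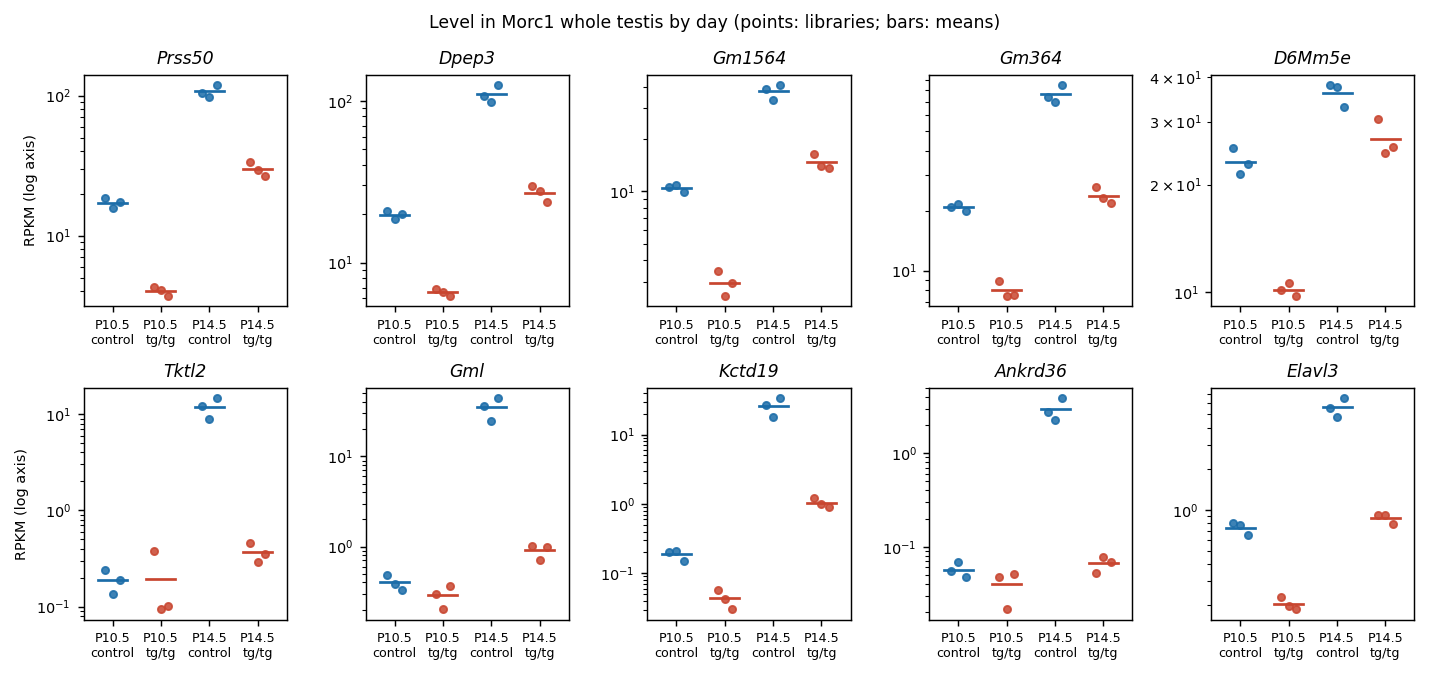
RPKM on a log axis (vertical) in Morc1 whole testis at P10.5 and P14.5 (horizontal axis), with 3 libraries and their mean for controls (blue, Morc1tg/+ with 1 Morc1+/+ at P10.5) and for Morc1tg/tg (red). Prss50, Dpep3, Gm1564, Gm364, D6Mm5e and Elavl3 were apart between genotypes at both days, as was Kctd19, whereas Tktl2, Gml and Ankrd36 were apart only at P14.5, when their controls were 52.0-fold to 87.3-fold above those of P10.5.

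In Dnmt3l-/- testis at P10.5, 10 of the 10 genes were lower than in the 6 Dnmt3l+/- and Dnmt3l+/+ controls, in a comparison where 29% of all genes were called lower and 24.9% higher. Their median log2 fold change was -2.34, and that of all genes -0.0009. The count and this median include Kctd19 and Ankrd36, which could enter the test only through the controls and add no support. Prss50 was 1.24, 1.60 and 3.75 in Dnmt3l-/-, and its controls had a lowest value of 11.1, a median of 22.8 and a highest of 28.0 (log2 fold change -3.21, SE 0.37, adjusted p = 2.18e-05). Dpep3 was 3.10, 3.22 and 4.64 against 13.7, 22.8 and 27.3 (-2.54, SE 0.22, adjusted p = 2.77e-06). Gm1564 was 1.67, 1.41 and 2.52 against 5.63, 10.3 and 15.5 (-2.39, SE 0.29, adjusted p = 3.2e-05). No mutant library reached the lowest control for these 3 genes.

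Elavl3 was 0.125, 0.0756 and 0.209 in Dnmt3l-/-, with controls of 0.500, 0.705 and 0.889 as lowest, median and highest (-2.29, SE 0.28, adjusted p = 3.49e-05). Gm364 fell by 1.76 on the log2 scale (SE 0.20) and D6Mm5e by 1.68 (SE 0.14), from control medians of 20.8 and 29.1 to 5.06, 5.11 and 7.35 and to 7.80, 7.32 and 10.0. These too were apart from all 6 controls.

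The members of the late pattern in Morc1 testis were lower in Dnmt3l-/- as well. Tktl2 fell least of the 10, to 1.41, 1.40 and 2.23 from controls of 2.74, 3.78 and 4.25 as lowest, median and highest (-1.06, SE 0.18, adjusted p = 0.000346). Gml fell to 0.357, 0.494 and 0.354 from 1.02, 1.27 and 1.52 (-1.60, SE 0.21, adjusted p = 6.33e-05). Kctd19 and Ankrd36 were barely expressed, with 6 reads and 3 reads in the 3 mutants and 71 and 59 in the 6 controls. Both could enter the test only through the controls, where they are higher, so they add no support to the count of 10. Ankrd36 lay below all controls (adjusted p = 0.000387), but Kctd19 overlapped them through Dnmt3l+/+ replicate 3, which had 1 read, and its call (adjusted p = 0.0128) was lost without Dnmt3l-/- replicate 2 (adjusted p = 0.0556).

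The third library of both control genotypes had the lowest level of its group for Prss50, Dpep3, Gm1564, Gm364, D6Mm5e, Gml, Kctd19 and Elavl3, for example 11.1 of Prss50 in Dnmt3l+/+ and 16.6 in Dnmt3l+/-. The third Dnmt3l-/- library had the highest level of its group for every member but Gml. Without it, 10 members were called, with Prss50 at -3.83, Kctd19 at -3.58 and Ankrd36 at -4.14. Without replicate 3 of both control genotypes, an alternative added after seeing the data, 10 members were again called, with Prss50 at -3.41. Between Dnmt3l+/- and Dnmt3l+/+, edgeR and DESeq2 called 0 members and 0 had an unadjusted p under 0.05, with 0% of all genes called lower and 0.00651% higher.

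Germ cell markers fell in this line too, as did Morc1 itself (6.28 to 7.04 against 11.2 to 15.7, log2 fold change -0.89, SE 0.11, adjusted p = 3.21e-05). All 10 were called lower in Dnmt3l-/- (summed 193 to 229 against 476 to 605), as were 20 of 20 early meiosis genes (94.1 to 121 against 216 to 355), and 7 of 9 Sertoli markers were higher (4367 to 4799 against 2772 to 3794). The median log2 fold change was -1.37 for the germ cell markers and -1.40 for the early meiosis genes. Of 10 genes of undifferentiated spermatogonia, 3 were called lower and 3 higher. Of 21 relatives and partners tested, 13 were lower and 4 higher, with Ly6k at -2.61 and Tex101 at -1.98. How much of each member's fall goes with the lower germ cell markers was not tested.

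**Figure D4:**
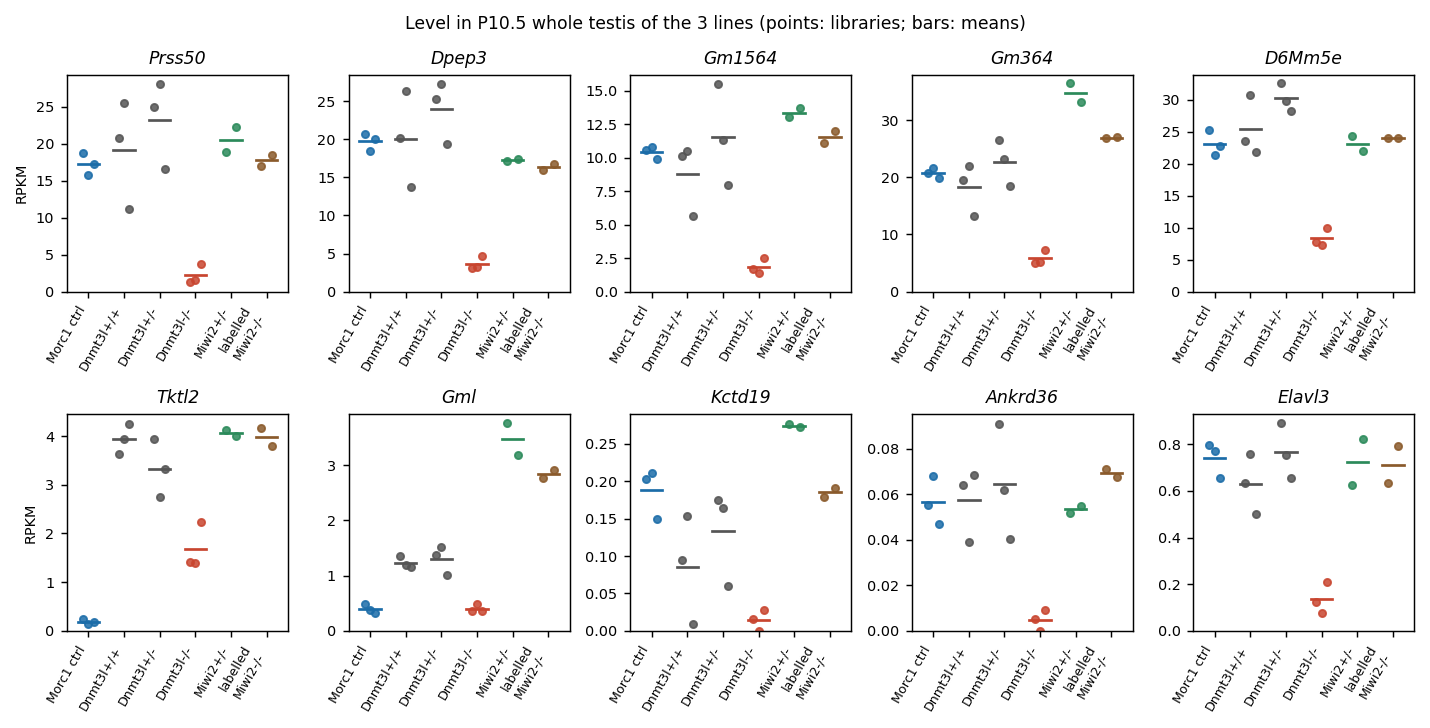
RPKM (vertical axis, from 0) in P10.5 whole testis of the Morc1 controls, the 3 Dnmt3l genotypes and the 2 Miwi2 groups (horizontal axis), with a point for each library and a bar at the mean. Dnmt3l-/- is the lowest group of its line for every gene, and Tktl2 and Gml were higher in the controls of the Dnmt3l and Miwi2 lines than in Morc1 controls.

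Control levels of Tktl2 and Gml differed between the lines at P10.5. Tktl2 was 0.135 to 0.242 in Morc1 controls, 2.74 to 4.25 in Dnmt3l controls and 4.00 and 4.13 in Miwi2+/-. Gml was 0.332 to 0.487, 1.02 to 1.52 and 3.19 and 3.76 in the same order. The 3 lines did not overlap for Gml, and for Tktl2 the Dnmt3l and Miwi2 values overlapped each other but not the Morc1 controls. Gm364 was 33.1 and 36.4 in Miwi2+/-, above the 19.8 to 21.7 of Morc1 controls and the 13.2 to 26.5 of Dnmt3l controls, while Prss50 overlapped, at 15.7 to 18.7, 11.1 to 28.0 and 18.9 and 22.2. Line, strain and time of sampling cannot be told apart in these levels, and they were not tested.

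In testes labelled Miwi2-/-, 1 of the 10 genes was called against Miwi2+/-. This was Gm364, at 26.9 and 27 against 36.4 and 33.1 (log2 fold change -0.38, SE 0.07, adjusted p = 0.0241), with 0.506% of all genes called lower and 0.725% higher. Gm1564 was 11.1 and 12.0 against 13.0 and 13.7 (-0.23, SE 0.07, adjusted p = 0.112). Prss50 was 17.8 ± 1.06 against 20.6 ± 2.34 (SD, n = 2 and 2, -0.23, SE 0.09, adjusted p = 0.19). Each group held 2 libraries. With the replicate number as a block, Prss50 and Gm1564 were called as well, though no label pairs the libraries. Without Miwi2+/- replicate 1, Prss50 had an adjusted p of 0.0242 in edgeR, but the lone Miwi2+/- library is then assumed to vary like the other group. Each direction in this line is given as the labels have it, and transposable elements, another readout of the genotype, were not analysed here. D6Mm5e (0.04, SE 0.07), Tktl2 (-0.05, SE 0.11) and Dpep3 (-0.10, SE 0.07) lay nearest to 0 with Elavl3 (-0.04, SE 0.18). Gml (-0.31, SE 0.16) and Kctd19 (-0.58, SE 0.27) had larger values with wide errors and did not pass the test, and Ankrd36 lay the other way (0.35, SE 0.40, adjusted p = 0.671). Of the 10 germ cell markers, Piwil2 (102.7 against 32.05 on average) and Tdrd9 were called higher in the libraries labelled Miwi2-/- and 0 lower. Their summed level, 543 to 555 against 466 to 482, differed mostly through Piwil2, and the median log2 fold change of the 10 was 0.02. Whether the Dnmt3l and Miwi2 effects differ was not tested.

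**Figure D5:**
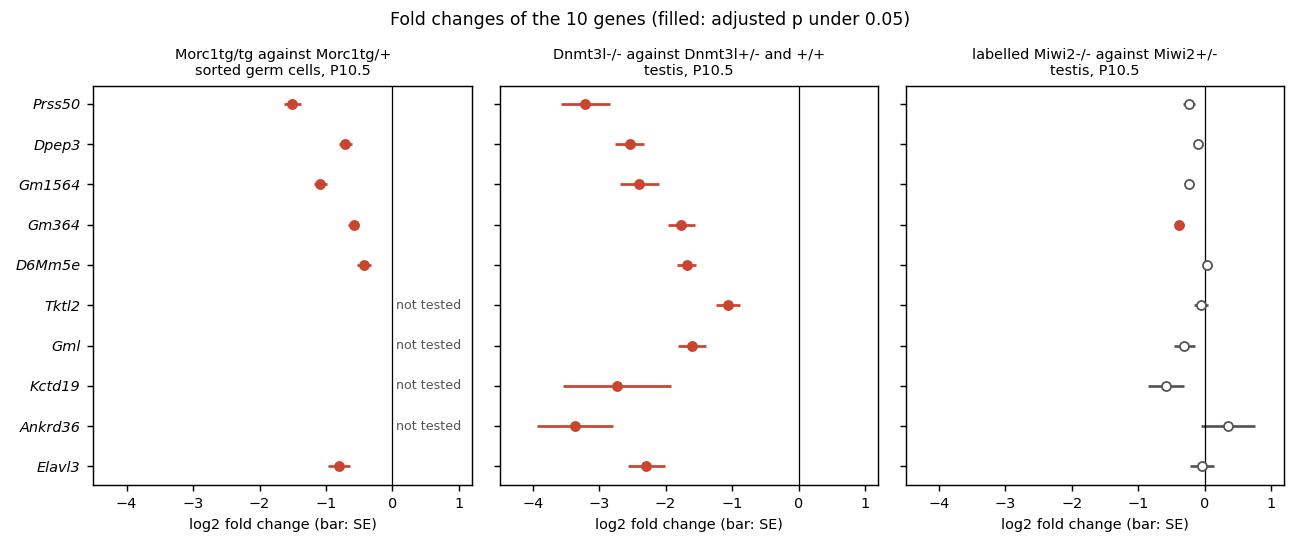
log2 fold change (horizontal axis, bars are the SE) of each gene (rows) in the 3 tested P10.5 comparisons, filled where the adjusted p was under 0.05. The filled points number 6 in sorted Morc1tg/tg cells, 10 in Dnmt3l-/- testis and 1 in testis labelled Miwi2-/-, and 4 genes had too few reads for the test in sorted cells. The 10 include Kctd19 and Ankrd36, which could enter that test only through the controls.

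Correlations were computed over the 27 whole testis libraries, which share genotype, day and line effects. They include the Morc1 testes on which the members were chosen, so the members resemble each other in part through that choice. The Pearson correlation of log2 CPM was 0.985 for Prss50 with Dpep3 and with Gm1564, 0.98 for Gm1564 with Gm364 and 0.981 for Dpep3 with Elavl3. Kctd19 and Ankrd36 gave 0.913 with each other. Tktl2 stood apart, with 0.365 to 0.515 with the members other than Gml and 0.799 with Gml.

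The 2 genes with the pattern most like each member were sought among 13322 genes. For Kctd19 they were Msh5 (0.985), a gene of meiotic recombination, and its partner Zfp541 (0.979). Stag3, a meiotic cohesin, was among the nearest 2 of Dpep3 (0.983) and of Elavl3 (0.983). Prss50 was nearest to Gal3st1 (0.989), which makes the sulfated glycolipids of germ cells, Gm364 to Fmr1nb (0.989) and Boll (0.985), a germ cell RNA-binding protein, and D6Mm5e to Esx1 (0.982) and Mei1 (0.978). Gm1564 was nearest to Nrip3 (0.989), Ankrd36 to Wdr35 (0.971) and Gml to Mlc1 (0.975). For Tktl2 the nearest were Alg8 (0.941) and Myo1a (0.938), with the lowest values of the 10. These correlations describe 27 libraries, which include those that chose the members, and carry no test. Kctd19 and Ankrd36 had few reads in P10.5 testis, such as 6 and 3 over the 3 Dnmt3l-/- libraries. Their values may therefore rest largely on the P14.5 libraries, which were part of the choice.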

How the data were processed

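RNA-Seq was performed on sorted male germ cells (Ovation kit, ribosomal RNA depleted) and on whole testis (TruSeq kit). The authors deposited a table of read counts per gene and a table column of RPKM for each library, made after trimming and removal of ribosomal reads. The tools named in the submitters' processing notes are Bowtie and HTSeq with the build mm9, and their versions are not given in the sources used here. Small RNA tables were not used here, and the other assays were not analysed here.

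Counts were fitted with edgeR 4.0.16 in R 4.3.3 (filterByExpr, TMM, quasi-likelihood test), each comparison with its own groups, and p-values were adjusted over all genes tested by Benjamini-Hochberg with a threshold of 0.05. DESeq2 1.42.0, no filter on low counts, the replicate block and leaving out each library were alternatives. The code was tested on simulated data. The lowest chi-square per gene between replicates of a group was 4.45, so no library was counted as a copy of another in its group. The preliminary libraries, which stand alone in their groups, were not compared. Each library in the tested comparisons is labelled as a separate replicate, and p-values measure the spread between these libraries. The preliminary and the later Morc1+/+ library are both labelled replicate 1, and the labels do not say whether they share a mouse.

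The members and gene lists were chosen with earlier results of these data known. All 10 members are named, with list genes, the targeted genes and, for each member, the 2 genes with the highest Pearson correlation of log2 CPM (prior count 2). The test of the difference between stages and the fit without the third Dnmt3l control libraries were chosen after seeing the data. The symbols Meiob, Meioc and Rhox5 of the lists matched no row, although the Meioc gene is present under its older symbol Gm1564 as a member.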

Additional observations from a re-analysis of the deposited data

Results flagged for a closer look

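The Morc1 effect differed between stages for 3 members, in an edgeR test of the difference between sorted germ cells at P10.5 and at an earlier stage. Against E16.5 the log2 difference was -1.61 for Prss50, -0.63 for Dpep3 and -0.99 for Gm1564. Against E18.5 it was -3.16 for Prss50 and -1.17 for Gm1564. The Prss50 value rests on 42 reads over the 2 Morc1tg/+ libraries of E18.5, which disagreed. Against P2.5 it was -2.72 for Prss50, -1.22 for Dpep3 and -1.58 for Gm1564. All of these tests share the P10.5 libraries. The gate and the strain background changed between P2.5 and P10.5 in both genotypes, so stage cannot be told apart from them. Gm1564 in the 4 sorted P10.5 controls came nearest to Dixon's 95% limit for a single high library, with a gap of 0.821 of the group's range between replicate 1 (35.6) and the next library (26.9).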

How the results depend on the processing

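Of 132 alternative values of the main counts and medians, 120 stayed within the range called the same and 12 moved. The number of members called in Morc1tg/tg germ cells at E16.5 went from 0 to 1 with no filter on low counts and to 1 with the replicate block, and ranged from 0 to 1 without one library. For the libraries labelled Miwi2-/- it went from 1 to 3 with the replicate block and ranged from 1 to 2 without one library. Between control cells of E16.5 and E18.5 it went from 0 to 1 with the replicate block, and it moved when 1 library was left out. Between E18.5 and P2.5 it went from 2 to 1 with the block, and it moved in the same way. Where only 1 E18.5 library is left, the count is not read. The count in sorted cells at P10.5 ranged from 5 to 6 without one library and that in Dnmt3l-/- from 9 to 10. The replicate numbers were not taken to pair the samples, since no label says so and no comparison with 3 or more pairs had every correlation of deviations above 0.1. Pairing cannot be judged this way with 2 pairs, which gave 0.32 in the Miwi2 line. In the Miwi2 line the replicate block added Prss50 (adjusted p = 0.000804) and Gm1564 (adjusted p = 3.42e-05). Fold changes without one library were computed for sorted cells at P10.5, Dnmt3l-/-, the Miwi2 line and P2.5 to P10.5, and there directions reversed only for members that were not called. In the Miwi2 line D6Mm5e ranged from -0.031 to 0.10, Elavl3 from -0.24 to 0.17 with 0.11 without the library labelled Miwi2-/- replicate 1, and Tktl2 from -0.12 to 0.0050. Kctd19 between P2.5 and P10.5 ranged from -0.13, without P2.5 replicate 1, to 0.76. Dpep3 passed the test between those stages without the same library (0.44, adjusted p = 0.00631). The cause was not tested. Depth limits Tktl2, Gml, Kctd19 and Ankrd36 in sorted cells and Kctd19 and Ankrd36 in P10.5 testis, and differences there may not have been detectable.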
